A study of Mus musculus with 48 samples.

Results

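The contractile and cytoskeletal genes of smooth muscle were followed through a mouse model of aortic dissection and aneurysm. The 35 genes were chosen by name, with earlier results of these data known, and matched by symbol among the 18782 genes listed. All 35 were among the 14431 genes that passed the filter on low counts, and the smallest count of any of them in any library was 108. They were measured in the thoracic aorta of 48 wild-type C57BL/6J mice, 1 library per mouse. Control males (MaCon, n = 10) and females (FeCon, n = 10) drank normal water, and the other mice drank 0.4% β-aminopropionitrile (BAPN), an inhibitor of the lysyl oxidases that cross-link collagen and elastin, for 28 days from 3 weeks of age. BAPN mice that survived to the end were then divided by what was seen in the aorta. Some had no dissection or aneurysm (MaNonAD, n = 4, and FeNonAD, n = 8) and others had one (MaAAD, n = 7, and FeAAD, n = 9). Mice that died of aortic rupture, by the paper more common in BAPN males than in BAPN females, are not among the 48. NonAD and AAD mice thus differed in outcome and not in treatment.

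Smooth muscle cells of the aortic media contract when myosin light chain kinase phosphorylates the light chains of smooth muscle myosin, which then pulls on actin filaments. These filaments are anchored in dense bodies inside the cell and in dense plaques at its membrane, and myosin phosphatase reverses the phosphorylation. Most of the genes depend on serum response factor (SRF) and its coactivator myocardin, encoded by Myocd, and a fall of their RNA is the usual sign of smooth muscle cells that leave the contractile state. In RNA from whole tissue, fewer smooth muscle cells and less RNA of these genes per cell cannot be told apart.

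Levels are in CPM, a gene's count relative to the size of its library after TMM scaling in edgeR. Library totals were 13548000 to 17281273 expected counts. Smooth muscle RNA was abundant everywhere, and the 35 genes together took 6.42% to 10.09% of counts in MaCon (median 8.06%), 5.05% to 7.22% in MaNonAD, 2.67% to 6.21% in MaAAD (median 4.80%), 6.95% to 8.98% in FeCon, 5.46% to 8.60% in FeNonAD and 2.79% to 6.69% in FeAAD (median 4.79%). Every AAD library was below every control library of its sex. A few libraries stood apart. FeAAD5 was the lowest FeAAD library for 24 of the 35 genes and MaAAD1 the lowest MaAAD library for 28. FeAAD2 held 26920 CPM of red cell markers, against a median of 640 CPM in its group, and FeCon10 held 715.6 CPM of heart muscle markers, against a median of 147 CPM. MaAAD1 held 4034 CPM of white fat markers and 2571 CPM of brown fat markers, against medians of 730.2 and 361.5 CPM in its group, and MaAAD7 held 483 CPM of heart muscle markers, against a median of 78.3 CPM.

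**Figure D1:**
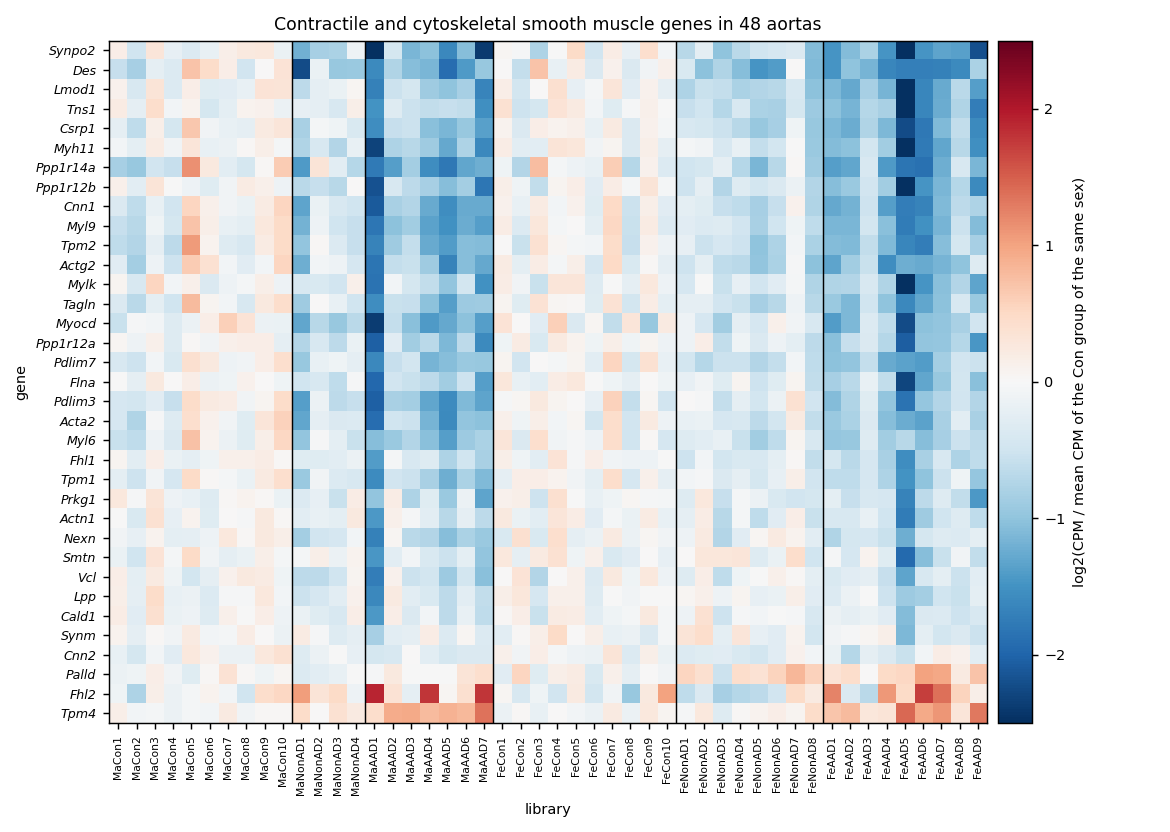
Each row is one of the 35 genes and each column a library, and the colour gives the log2 ratio of its CPM to the mean CPM of the Con group of the same sex, with blue for lower and red for higher. Blue deepens from Con through NonAD to AAD in most rows, MaAAD1 and FeAAD5 are the darkest columns of their groups in many rows, and at the bottom Tpm4 is red in all AAD columns and Fhl2 and, in females, Palld in most of them.

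The contractile genes fell in aortas with a dissection or aneurysm in both sexes. In MaAAD against MaCon, 30 of the 35 genes were lower and 2 higher at an adjusted p under 0.05 (edgeR's quasi-likelihood test, adjusted over all 14431 genes), where 16.1% of all tested genes were lower and 18.9% higher. In FeAAD against FeCon, 30 were lower and 3 higher, against 20.6% and 23.8% of all genes. The median log2 fold change of the 35 genes was -0.93 in males and -0.83 in females, while that over all genes was -0.03 and 0.001. As DEGs, which also needed a log2 fold change of 1 or more in size, 12 genes were lower and 1 higher in males, against 2.18% and 9.18% of all genes, and 11 were lower and 0 higher in females, against 2.78% and 9.94%. Every MaAAD library lay below every MaCon library in 9 of the 35 genes and above in 1, against 2.77% and 6.14% of all genes. The same held for 8 genes below and 1 above in FeAAD and FeCon, against 1.25% and 3.63%. Without MaAAD1, 26 genes were lower in males. In females 27 were lower without FeAAD5, 30 without FeAAD2 and 30 without FeCon10. The shares of all genes in these fits were not counted.

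Smooth muscle α-actin (Acta2), the main actin of these cells and a gene of inherited thoracic aortic disease, was the most abundant of the 35 genes per length of transcript, at 11800 ± 3350 CPM per kb in MaCon and 10700 ± 2100 in FeCon (SD, n = 10 each). In males, the lowest, median and highest levels of Acta2 were 14210, 22950 and 35600 CPM in MaCon and 6432, 11760 and 17020 CPM in MaAAD, and the 4 MaNonAD libraries held 9772, 20417, 18590 and 18919 CPM. In females they were 15650, 21830 and 29530 CPM in FeCon, 13850, 16440 and 25410 CPM in FeNonAD and 8604, 12430 and 18240 CPM in FeAAD. The AAD and Con ranges overlapped in both sexes. The log2 fold change in AAD was -1.02 ± 0.19 (SE) in males and -0.81 ± 0.17 in females (adjusted p = 3.46e-05 and 0.0002), a fall of 50.8% and 42.9%.

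Myh11, the heavy chain of smooth muscle myosin, fell in both sexes. Its lowest, median and highest levels were 4996, 5639 and 7257 CPM in MaCon and 1180, 3188 and 3635 CPM in MaAAD, with 3514, 4472, 3528 and 5155 CPM in the MaNonAD libraries. In females the levels were 4892, 6238 and 7826 CPM in FeCon, 3304, 5130 and 6279 CPM in FeNonAD and 754, 2978 and 4567 CPM in FeAAD. No AAD library overlapped its control group, and MaAAD1 and FeAAD5 were the lowest. Myh11 fell by 53.3% in MaAAD (log2 fold change -1.10 ± 0.21) and by 55.3% in FeAAD (-1.16 ± 0.19).

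Actg2, the γ-actin of visceral smooth muscle, was a minor actin here. Its levels were 239, 403 and 673 CPM in MaCon, 122, 207 and 294 CPM in MaAAD and 187, 409.8, 398 and 321 CPM in the MaNonAD libraries. Females had 321, 427 and 605 CPM in FeCon, 209.8, 273 and 422 CPM in FeNonAD and 147, 190.5 and 341 CPM in FeAAD. It fell in both sexes, with overlapping ranges (-1.05 ± 0.20 in MaAAD and -0.98 ± 0.19 in FeAAD on the log2 scale).

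The regulatory light chain that myosin light chain kinase phosphorylates is encoded by Myl9. Myl9 was at 3271, 4791 and 8681 CPM in MaCon, 1525, 2108 and 2891 CPM in MaAAD and 2339, 4854, 3774 and 3563 CPM in the MaNonAD libraries. All MaAAD libraries were below all MaCon libraries, and the log2 fold change was -1.28 ± 0.19. In females the levels were 3302, 4773 and 6869 CPM in FeCon, 2760, 3632 and 4454 CPM in FeNonAD and 1436, 2186 and 3531 CPM in FeAAD, with a log2 fold change in AAD of -1.04 ± 0.17 and overlapping ranges. Myl6, an essential light chain that other cell types also use, fell by 48.9% in males, with no overlap, and by 40.5% in females.

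**Figure D2:**
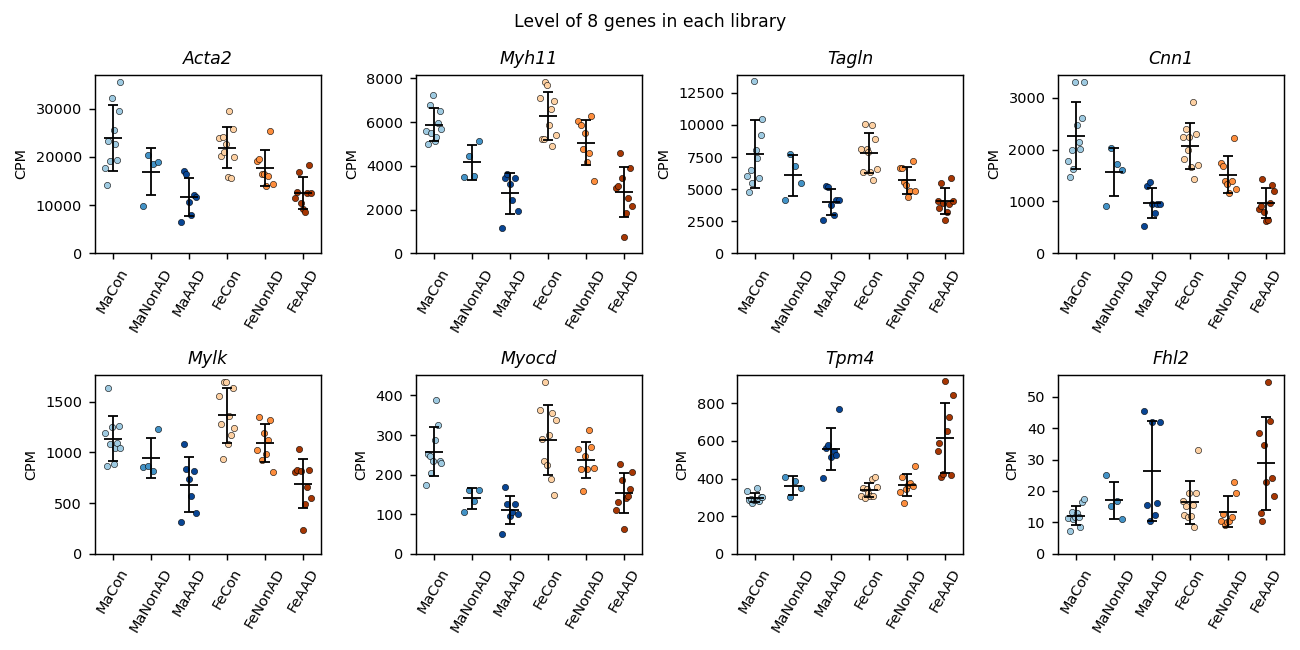
Points are the CPM of 8 genes in each library, by group, with the mean and SD of each group in black. Acta2, Myh11, Tagln, Cnn1, Mylk and Myocd have their lowest mean in AAD in both sexes, and Tpm4 and Fhl2 their highest.

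Among proteins that bind actin filaments, the early smooth muscle marker Tagln (transgelin, SM22α) and Cnn1 (calponin, an inhibitor of the myosin ATPase) fell in both sexes. Tagln stood at 4811, 6951 and 13390 CPM in MaCon, 2629, 4118 and 5256 CPM in MaAAD and 4175, 7759, 6831 and 5503 CPM in the MaNonAD libraries. In females its levels were 5699, 8004 and 10070 CPM in FeCon, 4368, 5462 and 7160 CPM in FeNonAD and 2570, 3898 and 5877 CPM in FeAAD. The log2 fold change of Tagln was -0.94 ± 0.18 in males and -0.94 ± 0.17 in females, and the 95% interval of the difference between them was -0.48 to 0.47.

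Cnn1 was a DEG in both sexes. Its levels were 1462, 2074 and 3306 CPM in MaCon, 529.9, 949 and 1367 CPM in MaAAD and 912, 2024, 1729 and 1601 CPM in the MaNonAD libraries, with no overlap between MaAAD and MaCon. Females had 1422, 2109 and 2922 CPM in FeCon, 1159, 1386 and 2217 CPM in FeNonAD and 624, 909.7 and 1435 CPM in FeAAD. On the log2 scale it changed by -1.22 ± 0.20 in males and -1.09 ± 0.18 in females.

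Lmod1, leiomodin, nucleates actin filaments in smooth muscle. It was at 789, 1014 and 1315 CPM in MaCon, 322, 564 and 763 CPM in MaAAD and 658, 896, 926 and 1070.5 CPM in the MaNonAD libraries. In FeCon, FeNonAD and FeAAD it was at 900.2, 1215 and 1630 CPM, 606, 750 and 934 CPM and 159, 511 and 771 CPM in turn. AAD and Con did not overlap in either sex, and the log2 fold change was -0.94 ± 0.19 in males and -1.26 ± 0.18 in females. Smaller falls were seen for Smtn (smoothelin, -0.49 and -0.44) and Cald1 (caldesmon, -0.38 and -0.37), whose adjusted p of 0.0357 and 0.0347, and 0.0451 and 0.0272, were close to the threshold. Neither gene was called in males without MaAAD1 or without MaCon5, or in females without FeAAD5.

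The tropomyosins, which lie along actin filaments, moved in opposite directions. Tpm2, the β-tropomyosin of muscle, was at 1105, 1516 and 3827 CPM in MaCon, 572, 859 and 1203 CPM in MaAAD and 923, 1872, 1449 and 1231 CPM in the MaNonAD libraries. In females it was at 1122, 1643 and 2307 CPM in FeCon, 833, 1157 and 1596 CPM in FeNonAD and 505, 788 and 1232 CPM in FeAAD. It fell in both sexes (-1.10 ± 0.21 and -1.01 ± 0.19), as did Tpm1 (-0.89 ± 0.16 and -0.69 ± 0.15).

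Tpm4, the tropomyosin of non-muscle actin filaments, rose. Its levels were 269, 288 and 349 CPM in MaCon, 411, 301, 389 and 349.7 CPM in the MaNonAD libraries and 404, 547 and 768 CPM in MaAAD. Females had 298, 334 and 406 CPM in FeCon, 271, 360.3 and 466.4 CPM in FeNonAD and 411, 588 and 919.7 CPM in FeAAD. Every AAD library was above every control library in both sexes, the one gene of the 35 of which this was true, and the log2 fold change was 0.90 ± 0.13 in males and 0.86 ± 0.12 in females (adjusted p = 3.46e-07 and 1.59e-07).

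Set against each other within a library, these related genes gave ratios that do not depend on library scaling. The tests of these ratios were added after the levels had been seen. They were 36 two-sided exact permutation tests on the log2 ratio, over 6 pairs and 6 comparisons, with p adjusted over the 36. The median ratio of Tpm2 to Tpm4 was 5.20 in MaCon and 1.48 in MaAAD, and 5.01 in FeCon and 1.32 in FeAAD, with no overlap in either sex (exact permutation p = 5.14e-05, 0.000309 after adjustment in males, exact permutation p = 1.08e-05, 0.00013 after adjustment in females, the smallest p these group sizes can give). In FeAAD5 the ratio was 0.582, so that Tpm4 exceeded Tpm2. The log2 ratio of Tpm1 to Tpm4 changed by -1.78 in males and -1.52 in females, and it also separated MaAAD from MaNonAD (exact permutation p = 0.00303, 0.00727 after adjustment). In FeAAD it was lower than in FeNonAD, with overlap (exact permutation p = 0.000864, 0.00346 after adjustment).

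In NonAD against Con, the ratio of Tpm2 to Tpm4 was lower in females (log2 difference -0.60, exact permutation p = 0.0058, 0.0131 after adjustment), also without FeNonAD8 or FeCon10, and in males the log2 difference was -0.63 and was not called (exact permutation p = 0.0999, 0.128 after adjustment), except without MaNonAD2 (-0.88, 0.0438 after adjustment). That of Tpm1 to Tpm4 was lower in males (log2 difference -0.68, exact permutation p = 0.012, 0.0206 after adjustment), a call lost without MaNonAD1 or MaNonAD3 (adjusted values 0.0979 and 0.0538), and not called in females (log2 difference -0.28, exact permutation p = 0.0359, 0.0538 after adjustment), except without FeCon10 (-0.31, 0.0357 after adjustment).

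Cnn1 to Cnn2, the calponin of smooth muscle to the calponin that is also found in other cells, had a median of 5.42 in MaCon and 2.99 in MaAAD, and of 5.17 in FeCon and 2.59 in FeAAD. The groups did not overlap in either sex (exact permutation p = 5.14e-05, 0.000309 after adjustment in males, exact permutation p = 1.08e-05, 0.00013 after adjustment in females). Cnn2 itself was lower in males (-0.31 ± 0.11, adjusted p = 0.0278) and was not called in females (-0.21 ± 0.11, adjusted p = 0.109), and the call in males was lost without MaAAD1 and without MaCon5. The ratio of Cnn1 to Cnn2 was also lower in MaNonAD than in MaCon (log2 difference -0.40, exact permutation p = 0.00899, 0.018 after adjustment). MaNonAD1 was the lowest of the 4 libraries, and without it the log2 difference was -0.21 and the call was lost (exact permutation p = 0.0769, 0.103 after adjustment). It was also lost without MaNonAD3 (log2 difference -0.41, 0.0515 after adjustment). In FeNonAD against FeCon the log2 difference was -0.21 and was not called (exact permutation p = 0.0343, 0.0537 after adjustment).

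**Figure D3:**
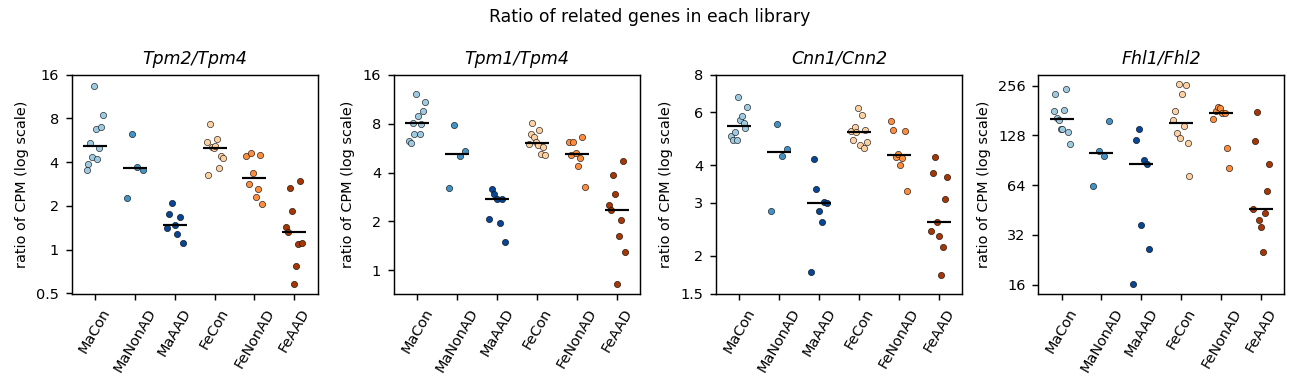
Points are the ratio of CPM of related genes in each library on a log scale, by group, with the group median as a line. For Tpm2 to Tpm4, Tpm1 to Tpm4 and Cnn1 to Cnn2 all AAD points lie below all Con points of the same sex, and for Fhl1 to Fhl2 the groups overlap.

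Genes that set the phosphorylation of myosin fell on both sides, the kinase and the phosphatase. Mylk, the myosin light chain kinase, was at 864, 1091 and 1639 CPM in MaCon, 315, 737 and 1086 CPM in MaAAD and 857, 869, 814 and 1236 CPM in the MaNonAD libraries. In females Mylk was at 934, 1320 and 1695 CPM in FeCon, 809, 1070 and 1354 CPM in FeNonAD and 236, 810.2 and 1031 CPM in FeAAD. The ranges of AAD and Con overlapped in both sexes, and the log2 fold change was -0.74 ± 0.20 in males and -0.98 ± 0.19 in females.

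Ppp1r12b and Ppp1r12a encode targeting subunits of myosin phosphatase. Ppp1r12b was at 853, 1020 and 1325 CPM in MaCon, 233, 583 and 800.4 CPM in MaAAD and 663, 709, 658 and 1067 CPM in the MaNonAD libraries. Females had 814, 1268 and 1557 CPM in FeCon, 748, 941 and 1131 CPM in FeNonAD and 149.7, 596 and 896 CPM in FeAAD. It fell by 50.1% in MaAAD, with no overlap, and by 54.0% in FeAAD, with overlap. Ppp1r12a fell by 47.7% and 47.0%, and the ratio of Ppp1r12b to Ppp1r12a was lower in FeAAD than in FeCon (exact permutation p = 0.0263, 0.043 after adjustment), a call lost without FeAAD5, where the adjusted value was 0.0877, and without FeCon10, where it was 0.0674.

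In the fit of all libraries, Ppp1r14a (CPI-17), which inhibits that phosphatase, had the largest fall of the 35 genes in MaAAD. Its levels were 116, 175 and 492.6 CPM in MaCon, 65.2, 86.2 and 125 CPM in MaAAD and 83.8, 279, 185 and 136 CPM in the MaNonAD libraries. Females had 108, 164 and 306 CPM in FeCon, 81.5, 119 and 184 CPM in FeNonAD and 49.2, 72.6 and 136 CPM in FeAAD. The spread within MaCon was wide, MaCon5 being its highest library, and the log2 fold change was -1.37 ± 0.27 in males and -1.13 ± 0.24 in females. Prkg1, the cGMP-dependent kinase that relaxes smooth muscle, was the lowest of the 35 genes per length (5.96 ± 0.965 CPM per kb in FeCon, SD, n = 10) and fell by 30.2% and 35.6%.

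In the dense bodies and intermediate filaments, the 2 largest falls of females were found. Synpo2 (synaptopodin 2), an actin-binding protein of dense bodies and Z-discs, was at 411, 581 and 714 CPM in MaCon, 91.9, 262 and 429 CPM in MaAAD and 252, 327, 336 and 530.1 CPM in the MaNonAD libraries. In females it was at 386, 655 and 928 CPM in FeCon, 312, 443 and 556 CPM in FeNonAD and 68.1, 239 and 383 CPM in FeAAD. No FeAAD library reached the FeCon range, and Synpo2 fell by 63.9% in females and by 59.5% in males.

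Des (desmin), the muscle intermediate filament protein, is also abundant in heart and skeletal muscle. It was at 90.6, 151 and 263 CPM in MaCon, 42.9, 73.0 and 96.1 CPM in MaAAD and 34.4, 143, 84.3 and 84.8 CPM in the MaNonAD libraries. Females had 112, 166 and 279.9 CPM in FeCon, 61.6, 82.6 and 172 CPM in FeNonAD and 51.9, 56.9 and 99.1 CPM in FeAAD. The log2 fold change was -1.21 ± 0.23 in males and -1.38 ± 0.21 in females, where AAD and Con did not overlap. In FeAAD, 7 of 10 heart muscle markers were also lower than in FeCon, and 4 without FeCon10, their summed level being 71.9 to 715.6 CPM in FeCon and 46.3 to 147 CPM in FeAAD. Of 8 tested skeletal muscle markers, 2 were lower in FeAAD than in FeCon, and 1 without FeCon10 or without FeAAD5, against 20.6% of all genes, and 1 was lower in FeNonAD, against 7.66%. Without FeCon10, the library with the most of both, Des changed by -1.36 in FeAAD on the log2 scale. The part of heart and skeletal muscle in the levels of Des was not tested. Synm (synemin), a partner of desmin, was the one gene called in neither sex (-0.23 ± 0.14 and -0.25 ± 0.13, adjusted p = 0.207 and 0.107).

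Genes of LIM and PDZ domain proteins that sit on actin and on α-actinin fell with them. Pdlim3 was at 303, 448 and 621 CPM in MaCon, 109, 184 and 259 CPM in MaAAD and 175, 407, 289 and 305 CPM in the MaNonAD libraries. In females its levels were 250.3, 382 and 562 CPM in FeCon, 249.7, 330.1 and 489 CPM in FeNonAD and 104, 223 and 306 CPM in FeAAD. It fell by 57.5% in males, with no overlap, and by 43.4% in females. Its relative Pdlim7 fell by 47.4% and 46.5%, and the ratio of Pdlim3 to Pdlim7 was lower in MaAAD than in MaCon (log2 difference -0.31, exact permutation p = 0.000617, 0.00278 after adjustment), whereas in FeAAD it differed from FeCon by 0.07 (exact permutation p = 0.614, 0.669 after adjustment). In NonAD against Con the ratio was lower in males (log2 difference -0.30, exact permutation p = 0.011, 0.0198 after adjustment) and higher in females (log2 difference 0.34, exact permutation p = 0.0106, 0.0198 after adjustment). The male call was lost without MaNonAD1, MaNonAD3 or MaNonAD4 (adjusted values 0.0755, 0.112 and 0.0515).

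Csrp1, a LIM protein that binds α-actinin, showed a clear separation in females. Its levels were 2309, 3135 and 3425 CPM in FeCon, 1526, 1934 and 2725 CPM in FeNonAD and 626, 1347 and 1939 CPM in FeAAD, with no overlap between FeAAD and FeCon. Males had 1741, 2456 and 4283 CPM in MaCon, 919.8, 1305 and 1846 CPM in MaAAD and 1527, 2603, 2491 and 2074 CPM in the MaNonAD libraries. On the log2 scale Csrp1 changed by -0.98 ± 0.18 in males and -1.21 ± 0.17 in females.

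At the membrane, Tns1 (tensin 1), which ties actin to integrins, was at 3054, 4146 and 5620 CPM in MaCon, 1424, 2703 and 3295 CPM in MaAAD and 3588, 3533, 3125 and 4562 CPM in the MaNonAD libraries. In females it was at 4144, 5833 and 7662 CPM in FeCon, 3157, 3791 and 4466 CPM in FeNonAD and 591, 2627 and 3629 CPM in FeAAD. Tns1 fell by 57.0% in females, with no overlap, and by 40.4% in males. Tns1 was also lower in MaCon than in FeCon, a call lost without FeCon10 or without MaCon5, as described with the sexes.

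The remaining anchoring genes were not DEGs in either sex. Flna (filamin A, a cross-linker of actin) fell by 44.1% in males and 43.8% in females, Vcl (vinculin) by 35.0% and 26.0%, and Lpp, a LIM protein of adhesion sites, by 25.5% and 25.5%. Fhl1, a four-and-a-half LIM domain protein, fell by 31.8% and 37.9%, and Nexn (nexilin) by 40.8% and 29.3%. Actn1 (α-actinin 1) was lower in females (-0.56 ± 0.16, adjusted p = 0.00326) and not called in males (-0.38 ± 0.17, adjusted p = 0.0771). The call for Vcl in females was lost without FeAAD5, and that for Lpp in males without MaAAD1.

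Fhl2 and Palld were the other genes that rose. Fhl2, a relative of Fhl1 that acts as a cofactor of several transcription factors, SRF among them, was at 7.07, 11.7 and 17.28 CPM in MaCon, 24.9, 15.1, 16.8 and 11.1 CPM in the MaNonAD libraries and 10.4, 16.0 and 45.4 CPM in MaAAD. In females it was at 8.53, 15.3 and 33.0 CPM in FeCon, 9.26, 11.1 and 22.9 CPM in FeNonAD and 10.3, 24.1 and 54.6 CPM in FeAAD. The AAD libraries were spread from within the control range to well above it, and MaAAD1, the library lowest for most other genes, was the highest of MaAAD. Fhl2 changed by 1.12 ± 0.29 on the log2 scale in males and 0.81 ± 0.28 in females (adjusted p = 0.00231 and 0.0146). The median ratio of Fhl1 to Fhl2 was 160 in MaCon and 85.4 in MaAAD (exact permutation p = 0.000411, 0.00212 after adjustment), and 153 in FeCon and 46.0 in FeAAD (exact permutation p = 0.00115, 0.00413 after adjustment). In NonAD against Con it was lower in males (log2 difference -0.72, exact permutation p = 0.00899, 0.018 after adjustment), a call lost without MaNonAD1 or MaNonAD3 (adjusted values 0.0806 and 0.0538), and not called in females (log2 difference -0.05, exact permutation p = 0.845, 0.894 after adjustment).

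Palld (palladin), a scaffold of actin bundles, rose in females. Its levels were 61.8, 78.7 and 116 CPM in FeCon, 55.8, 113 and 142 CPM in FeNonAD and 81.3, 113 and 162 CPM in FeAAD. In males they were 70.8, 85.9 and 112 CPM in MaCon, 68.9, 72.6, 77.2 and 86.8 CPM in the MaNonAD libraries and 85.2, 87.3 and 117 CPM in MaAAD. In AAD its log2 fold change was 0.56 ± 0.12 for females, at an adjusted p of 0.000283, and 0.14 ± 0.13 for males, at 0.43. The difference between the sexes in this response was -0.42, males minus females (95% interval -0.78 to -0.06), and was not called (adjusted p = 0.252).

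**Figure D4:**
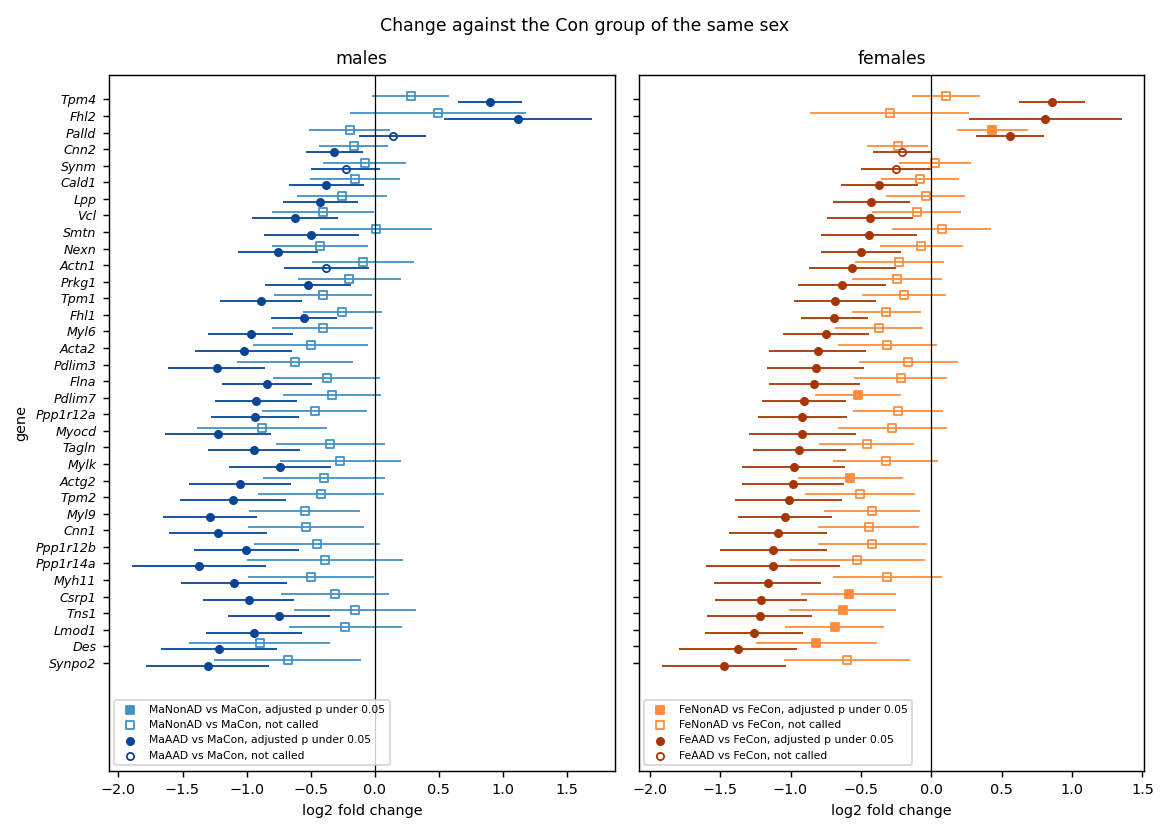
Each row is a gene, ordered by its change in FeAAD, and points are log2 fold changes of NonAD (squares) and AAD (circles) against Con in males and females with approximate 95% intervals. Filled points are called at an adjusted p under 0.05. Most circles lie left of 0 and left of their squares, and the circles of Tpm4, Fhl2 and Palld at the top lie to the right.

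Myocd, the coactivator that drives these genes through SRF, fell with them. It was at 175, 240.3 and 389 CPM in MaCon, 104, 160.0, 134 and 162 CPM in the MaNonAD libraries and 49.9, 106 and 169.6 CPM in MaAAD. Every MaAAD and every MaNonAD library was below every MaCon library, and Myocd was the one gene of the 35 for which MaNonAD lay wholly below MaCon (0.644% of all genes). In females it was at 149, 295 and 433 CPM in FeCon, 158, 232 and 312 CPM in FeNonAD and 61.0, 145 and 227 CPM in FeAAD. The log2 fold change in AAD was -1.22 ± 0.21 in males and -0.92 ± 0.19 in females. In MaNonAD it was -0.88 ± 0.26 (adjusted p = 0.106), the smallest adjusted p of the 35 genes in that comparison. DESeq2, another test of counts, called it lower there (log2 fold change -0.87, adjusted p = 0.0412).

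SRF binds the CArG box, a run of A and T letters between CC and GG, 10 letters in all and the same read from either strand. RefSeq's promoter windows (GRCm38.p6, 250 bases before to 50 after a gene's start) were on hand for 30 of the 35 genes, all but Tagln, Myh11, Actg2, Myocd and Nexn. An exact CArG box lay in the window of 6 of the 30 (20.0%), against 488 of 27025 genes with a window (1.81%). With 1 letter allowed to differ, 15 of the 30 held one, and 23.8% of all genes. The stretches around the exact boxes are shown because the genes that carry them moved in different directions, and that of Acta2 because its 2 boxes each differ from the motif by 1 letter. Capitals mark the box, and each stretch is given 5′ to 3′ on the strand of the gene.
Myl9 (chr2:156775278-156775337, plus strand): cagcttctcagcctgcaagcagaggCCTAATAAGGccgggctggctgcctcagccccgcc
Cnn2 (chr10:79988519-79988578, plus strand): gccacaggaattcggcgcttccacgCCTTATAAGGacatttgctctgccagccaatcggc
Myl6 (chr10:128493025-128493084, minus strand): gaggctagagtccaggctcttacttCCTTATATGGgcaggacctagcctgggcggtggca
Vcl (chr14:20929148-20929205, plus strand): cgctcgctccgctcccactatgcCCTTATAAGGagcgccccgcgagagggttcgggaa
Fhl1 (chrX:56779556-56779615, plus strand): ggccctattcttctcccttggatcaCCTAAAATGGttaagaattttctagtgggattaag
Fhl2, first start (chr1:43196823-43196882, minus strand): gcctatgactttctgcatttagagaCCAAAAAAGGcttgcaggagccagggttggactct
Fhl2, second start (chr1:43163962-43164017, minus strand): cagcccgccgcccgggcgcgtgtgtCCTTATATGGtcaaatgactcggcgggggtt
Acta2 (chr19:34255374-34255482, minus strand): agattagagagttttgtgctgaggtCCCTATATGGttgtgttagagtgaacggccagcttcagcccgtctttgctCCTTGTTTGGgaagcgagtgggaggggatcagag

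The box of Myl9 began 161 bases before its start, that of Cnn2 56, Myl6 50, Vcl 227 and Fhl1 102, while those of Fhl2 began 96 and 31 bases before its 2 starts. Those of Acta2 began 84 and 34 bases before its start. In MaAAD against MaCon, Myl9, Myl6, Vcl, Fhl1 and Cnn2 were lower, at log2 fold changes of -1.28, -0.97, -0.62, -0.55 and -0.31, while Fhl2, with a box before each of 2 starts, was higher at 1.12. The call for Cnn2 was lost without MaAAD1 and without MaCon5. In FeAAD against FeCon, Myl9, Myl6, Fhl1 and Vcl were lower at -1.04, -0.75, -0.69 and -0.43, the last a call lost without FeAAD5, Fhl2 was higher at 0.81, and Cnn2 was not called (-0.21). A match of letters is not a bound site, and boxes outside these windows were not searched.

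In BAPN aortas without a dissection or aneurysm, edgeR called 7 of the 35 genes in females and 0 in males in the fit of all 48 libraries. In FeNonAD against FeCon, 6 of the 35 genes were lower and 1 higher, against 7.66% and 6.87% of all genes, and the median log2 fold change was -0.31. The 6 were Des (-0.82), Lmod1 (-0.69), Tns1 (-0.63), Csrp1 (-0.59), Actg2 (-0.57) and Pdlim7 (-0.52), and Palld was higher (0.43 ± 0.13, adjusted p = 0.0176). Acta2 and Myh11 were not among them, each at -0.31 (adjusted p = 0.247 and 0.298). A fit of FeNonAD and FeCon alone called 13 genes lower, but the share of all genes called in that fit was not counted. The call for Actg2 was lost without FeNonAD8. In the same comparison all 4 proliferation markers were higher (median log2 fold change 1.65), and 3 without FeCon10, 2 of 8 fibroblast markers were higher and 1 of 8 endothelial markers was lower. The 10 macrophage markers had a median of 0.43 and did not pass the test. The part of these cells in the levels of the 35 genes was not tested.

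In MaNonAD against MaCon, 0 of the 35 genes were called lower and 0 higher by edgeR, against 0.18% and 0.443% of all genes, with only 4 MaNonAD libraries. At an unadjusted p under 0.05, 11 were lower and 0 higher, against 5.78% and 6.24% of all genes. DESeq2 called 1 lower, Myocd, and 0 higher, against 0.45% and 0.7% of all genes. The median log2 fold change was -0.38, and 32 of the 35 estimates were below 0. The lowest were Des (-0.90 ± 0.28), Myocd (-0.88 ± 0.26) and Synpo2 (-0.68 ± 0.29). MaNonAD1 was the lowest of the 4 libraries for 23 genes and also held the most macrophage marker RNA of its group (908 CPM). Median summed marker levels were higher in MaNonAD than in MaCon for macrophages (680 and 395.5 CPM), proliferation (30.5 and 8.17 CPM) and red cells (1458.5 and 451.4 CPM). They were lower for heart muscle (98.3 and 120 CPM). These sums, and the part of these cells in the levels of the 35 genes, were not tested.

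The step from BAPN without a lesion to BAPN with one was called in females. In FeAAD against FeNonAD, 18 of the 35 genes were lower and 2 higher, against 5% and 13.2% of all genes, and the median log2 fold change was -0.50. Synpo2 (-0.87), Myh11 (-0.85), Ppp1r12b (-0.70) and Ppp1r12a (-0.68) had the largest falls, and Fhl2 (1.11 ± 0.30, adjusted p = 0.00666) and Tpm4 (0.75 ± 0.13, adjusted p = 9.96e-05) rose. Acta2 was just short of the threshold (-0.50 ± 0.18, adjusted p = 0.0513). Without FeAAD5, 10 genes were lower, without FeAAD2 17, and a fit of these groups alone called 6. The shares of all genes called in these fits were not counted. All 10 macrophage markers (median log2 fold change 1.60), all 4 proliferation markers (2.61) and all 5 red cell markers (3.06) were higher in the same comparison, and of 8 fibroblast markers 3 were higher and 1 lower (2 and 0 without FeAAD2 or without FeAAD5). Without FeAAD2 the red cell markers had a median of 0.78 and did not pass the test, while the 10 and 4 others were still called. The part of these cells in the fall of the contractile genes was not tested.

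In MaAAD against MaNonAD, edgeR called 0 genes lower and 0 higher, against 0.0208% and 0.388% of all genes. At an unadjusted p under 0.05, 20 were lower and 1 higher, against 6.36% and 12.3% of all genes, and DESeq2 called 4 lower and 1 higher, against 0.548% and 4.89%. The median log2 fold change, -0.48, stood beside -0.50 in females, and the smallest adjusted p was that of Tpm4 (0.62 ± 0.17, adjusted p = 0.0507). Without MaNonAD1 edgeR called 7 lower and 1 higher, and without MaAAD1 0 lower and 1 higher, the shares of all genes not being counted. Of the 10 macrophage markers 1 was called higher (median log2 fold change 1.497), with 6 called without MaNonAD1 and 7 without MaAAD1. Without MaAAD1, 3 of 4 proliferation markers were also higher, and 4 of 5 brown fat markers and 3 of 4 Schwann cell markers were lower. The part of these cells was not tested. Group means were ordered Con above NonAD above AAD in 31 genes in males and 29 in females, the same 29 in both. These counts rest on the signs of the fold changes alone, called or not. The share of all genes ordered in this way was not counted.

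Between males and females of the same group, edgeR made 1 call. In MaCon against FeCon, 1 of the 35 genes was called, against 14.3% of all genes. It was Tns1, lower in males by 30.3% (-0.52 ± 0.18, adjusted p = 0.046), and the call was lost without FeCon10 (-0.52, adjusted p = 0.0667) and without MaCon5 (-0.53, adjusted p = 0.051), with little change in the fold. The call was also lost with library totals, with no filter and with a replicate block. DESeq2 called 2 genes lower in males, Tns1 (-0.53, adjusted p = 0.0266) and Fhl1 (-0.33, adjusted p = 0.031), the share of all genes not being counted. In MaNonAD against FeNonAD 0 were called (0.0624% of all genes), and in MaAAD against FeAAD 0 (0.0901%). DESeq2 also called 0 in each, against 0.0693% and 0.0901% of all genes. At an unadjusted p under 0.05, 2 were lower in males in each, against 3.76% and 1% of all genes.

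The responses to BAPN were also compared between the sexes, among mice that survived to the end. The AAD response differed between the sexes in 0 of the 35 genes (1.34% of all genes), the NonAD response in 0 (0.416%) and the step from NonAD to AAD in 0 (0%) by edgeR. DESeq2 called 0 in each as well, against 2.81%, 1.27% and 0.00693% of all genes. At an unadjusted p under 0.05 there was 1 gene in each of the first 2 tests, Palld in both, and 0 in the last, against 15.4%, 12.1% and 1.04% of all genes. Across the 35 genes, the log2 fold changes of AAD in males and females, which share no library, had a Pearson's r of 0.929 and a Spearman's rho of 0.808, and all 35 had the same sign. For the NonAD changes r was 0.414 and rho 0.353, with 32 of the same sign. Genes within a library are not independent, so these values describe the list. Of the 35, 29 were called lower in AAD in both sexes and 2 higher in both, Tpm4 and Fhl2, against 9.9% and 14.9% of all genes.

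Other genes of the contractile apparatus were counted from lists of related genes, beside the 16.1% of all genes that were lower and 18.9% that were higher in MaAAD and the 20.6% and 23.8% in FeAAD. Of 23 genes of dense plaques and focal adhesions, 13 were lower and 2 higher in AAD in each sex, with Tes (-1.21 in males and -1.31 in females), Lims2 (-1.22 and -1.14) and Zyx (-1.22 and -1.01) among the lowest. Of 17 tested genes of LIM and PDZ proteins, filaments and the membrane skeleton, 11 were lower in each sex and 1 was higher in females, with Dtna (-1.17 and -1.55) and Pdlim4 (-1.08 and -1.41) the lowest in both. Of 14 genes of smooth muscle signalling, 8 were lower and 1 higher in each sex. The one that rose was Ednra, a receptor of the vasoconstrictor endothelin (0.70 and 0.51), while Gucy1b1, a subunit of the nitric oxide receptor, fell (-1.03 and -0.65).

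Genes outside the muscle-specific apparatus were counted in the same way, beside the same shares of 16.1% lower and 18.9% higher of all genes in males and 20.6% and 23.8% in females. Of 13 genes of non-muscle actin and its thin filament partners, 5 were higher and 1 lower in males and 6 higher and 1 lower in females, with Capg (1.25 and 0.94), Tmsb10 (0.71 and 1.32) and Tpm3 (0.89 and 0.67) higher in both and Cnn3, the acidic calponin, lower (-0.92 and -0.69). Of 6 non-muscle myosin genes, 2 were lower in males, Myh14 (-1.06) and Myh10 (-0.59), and in females the log2 fold changes of the 6 lay between -0.22 and 0.11 and did not pass the test. Among 12 genes that control myosin phosphorylation, 6 were lower in each sex and 2 higher in females, and Ppp1r12c, a further targeting subunit of myosin phosphatase, fell in both (-0.78 and -1.12). Among 11 transcription factors of the SRF and MEF2 families and their partners, 3 were lower in males and 7 in females. Srf itself fell (-0.74 and -0.57), and Elk3, a partner factor of SRF, was the one that rose (1.05 and 1.10).

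Markers of macrophages and of proliferation rose in AAD, where most of the contractile genes fell. All 10 macrophage markers were higher in AAD than in Con in both sexes, and their summed level was 231 to 585 CPM in MaCon, 857 to 4117 CPM in MaAAD, 275 to 646 CPM in FeCon and 663 to 6206 CPM in FeAAD. FeAAD5 held the most macrophage RNA of all libraries and the smallest share of counts in the 35 genes among FeAAD. In males the libraries differed, since MaAAD7 held the most macrophage RNA and MaAAD1 the smallest share of the 35 genes among MaAAD. MaAAD1 also held the most white fat, brown fat and Schwann cell marker RNA of MaAAD. In MaAAD against MaCon the 5 brown fat markers had a median log2 fold change of -0.54, and of -2.01 without MaAAD1, when 3 were called lower. The 5 white fat markers had medians of 0.42 and -0.44, and the 4 Schwann cell markers of -0.41 and -0.66, with 1 called lower without MaAAD1. In females 1 of 5 white fat markers was lower in FeAAD than in FeCon, against 20.6% of all genes, and the call was lost without FeAAD5. All 4 proliferation markers were higher in both sexes, and all 5 red cell markers were higher in FeAAD, with a median log2 fold change of 3.62, and of 1.33 without FeAAD2, when all 5 were still called. Of 10 heart muscle markers, 7 were lower in FeAAD, and 4 without FeCon10, 5 without FeAAD2 and 5 without FeAAD5, while 1 was lower in MaAAD, and 0 without MaAAD1. Fibroblast markers were mixed, with 4 of 8 higher and 1 lower in males and 3 higher and 2 lower in females, and 2 of 8 endothelial markers were higher in males (1 without MaAAD1) and 1 higher and 1 lower in females (0 and 2 without FeAAD2), where 18.9% of all genes were higher in males and 23.8% higher and 20.6% lower in females. The part of these cells in the levels of the contractile genes was not tested.

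**Figure D5:**
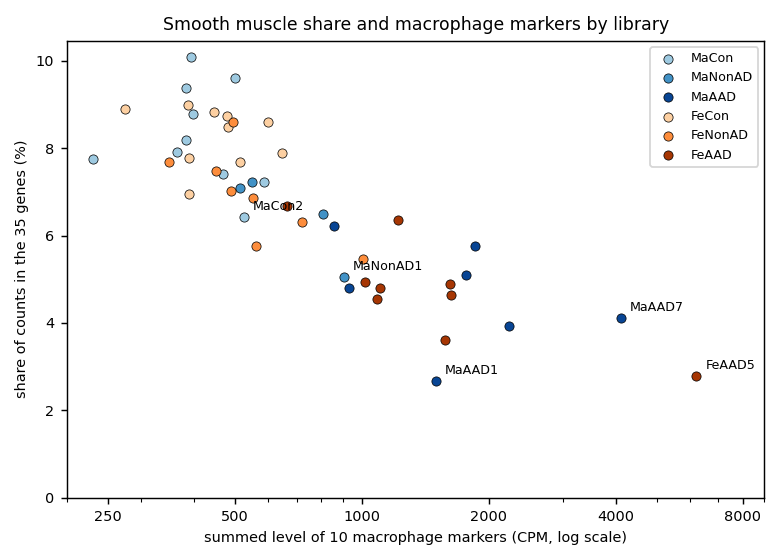
Each point is a library, placed by the summed CPM of 10 macrophage markers on a log scale and by the share of its counts in the 35 genes. AAD libraries lie to the lower right of Con libraries of the same sex, with NonAD libraries between and overlapping both, and FeAAD5 lies farthest right.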

How the data were processed

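RNA of thoracic aortas was sequenced from strand-specific libraries, 1 per mouse. The authors deposited expected counts per gene, not scaled to library size, from Bowtie2 and RSEM 1.3.1 on GRCm39 per the submitters' processing notes. Of all values 4.99% were not whole, none of them in the 35 genes, and all were rounded to whole counts. Groups and columns were taken from the labels.

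Counts were tested with edgeR 4.0.16 in R 4.3.3 (filterByExpr, TMM factors of 0.874 to 1.077, quasi-likelihood with robust estimation, 1 mean per group, all 48 libraries, Benjamini-Hochberg over 14431 genes). Standard errors, from the log2 fold change and F statistic, are approximate, as are 95% intervals. In counts simulated for FeAAD against FeCon (13716 genes tested, 50 changed at each size), the test recovered 50 and 50 of the log2 changes of -2 and 2, 45 of those of -1 and 43 of those of 1. The simulation gave all genes the same spread and held no outlying library. Only genes with a mean count of at least 50 were changed. It therefore does not show what the test could find in the smaller MaNonAD group. CPM per kb used the longest principal transcript of GENCODE M21. Ratios were tested by exact permutation in Python 3.11.15. Alternatives were DESeq2 1.42.0, its size factors, library totals, no filter, no robust estimation, a replicate block, compared groups only and left-out libraries.

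The 35 genes and the other lists were chosen with earlier results of these data known. Levels are given in full for DEGs and Acta2, Myh11, Tagln, Cnn1, Mylk and Myocd, the other genes by fold changes, and from each related list some of the up to 3 called genes per direction with the largest changes. The full levels of Tpm4 and Palld were added after their values were seen. Library totals of 13548000 to 17281273 gave every one of the 35 genes at least 108 counts per library. Promoters are RefSeq's for GRCm38.p6, another build than the counts.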

Additional observations from a re-analysis of the deposited data

Results flagged for a closer look

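Within groups of 4 to 10 libraries, the highest or lowest library was far from the others by Dixon's test in 18 of 210 combinations of the 35 genes and 6 groups. Chance gives about 1 in 20, and genes within a library move together. FeAAD5 was the low library in 10 of them, all in FeAAD and in CPM: Lmod1 at 159.2 (next lowest 399.2), Myh11 at 753.7 (1852), Mylk at 235.6 (488.2), Ppp1r12b at 149.7 (413.9), Cald1 at 549.5 (815.9), Pdlim3 at 104.5 (177.8), Actn1 at 480.1 (877.9), Vcl at 309 (515.9), Tns1 at 590.7 (1790) and Fhl1 at 820.5 (1376). This library also held the highest summed level of macrophage markers, 6206 CPM, whose part was not tested.

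In MaNonAD, with 4 libraries, MaNonAD1 was low for Acta2 at 9772 CPM (next lowest 18590) and for Pdlim7 at 286.4 CPM (474.2). MaNonAD4 was high for Mylk at 1236 CPM (next highest 868.9), Ppp1r12b at 1067 CPM (709.1) and Actn1 at 1666 CPM (1236). In MaAAD, Cnn2 was high in MaAAD3 at 408.4 CPM (next highest 336.9). In FeNonAD, Pdlim7 was high in FeNonAD7 at 539.2 CPM (414.5) and Palld was low in FeNonAD3 at 55.75 CPM (next lowest 102.8).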

How the results depend on the processing

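Of the calls for single genes under the alternatives, 825 stayed past the threshold and 56 did not, while of uncalled values 39 passed it, 1243 did not and 7 changed sign. With a log2 fold change of at least 1 also required, counts fell to 12 lower and 1 higher in MaAAD vs MaCon, 11 and 0 in FeAAD vs FeCon, 0 and 0 in FeNonAD vs FeCon, 0 and 1 in FeAAD vs FeNonAD, and 0 in MaCon vs FeCon. DESeq2 called 1 lower in MaNonAD vs MaCon, 4 lower and 1 higher in MaAAD vs MaNonAD and 2 in MaCon vs FeCon. DESeq2's size factors gave 1 higher in MaAAD vs MaNonAD and 2 in MaCon vs FeCon, library totals 1 and 0, and no filter 0 in MaCon vs FeCon. Fits of the compared groups only gave 1 lower in MaNonAD vs MaCon, 13 lower in FeNonAD vs FeCon, 6 lower in FeAAD vs FeNonAD and 2 in MaCon vs FeCon. Save for DESeq2 in some comparisons, the shares of all genes called under these settings were not counted. The causes were not tested. No scaling moved the median of all genes by more than 0.075.

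With libraries left out, 0 to 1 genes were lower in MaNonAD vs MaCon, 0 to 7 lower and 0 to 1 higher in MaAAD vs MaNonAD, 10 to 20 lower in FeAAD vs FeNonAD and 0 in MaCon vs FeCon. The changes of sign, all in uncalled values, were on the log2 scale Smtn in MaNonAD vs MaCon at -0.13 with a replicate block and at -0.02 to 0.10 with libraries left out (below 0 without MaNonAD2 and MaNonAD4), Synm there at -0.18 to 0.01 (above 0 without MaNonAD3), Des in MaAAD vs MaNonAD at -0.58 to 0.04 (above 0 without MaNonAD2), Synm in FeNonAD vs FeCon at -0.01 with the block, Lpp there at 0.03 by library totals, and, with libraries left out, the log2 ratio of Pdlim3 to Pdlim7 in MaAAD vs MaNonAD at -0.08 to 0.11, of Fhl1 to Fhl2 in FeNonAD vs FeCon at -0.17 to 0.08 and of Ppp1r12b to Ppp1r12a in MaNonAD vs MaCon at -0.05 to 0.07. Leaving out MaAAD1, MaCon5, FeAAD5 or FeAAD2, and any library for the ratios and marker lists, was chosen after seeing the data.

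Libraries that share a replicate number did not deviate together over genes (mean r of -0.0611 to 0.145 per comparison), so the numbers are not taken as pairs. With the replicate block, 29 genes were lower in MaAAD vs MaCon, 30 in FeAAD vs FeCon, 5 in FeNonAD vs FeCon and 19 in FeAAD vs FeNonAD, and the 1 call of MaCon vs FeCon became 0.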
